A study of Mus musculus with 6 samples.

Results

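Alternative first exons and alternative last exons are the splicing events in which transcripts of a gene begin or end with different exons. They were the rows that JuncBASE, a program that sorts splice-junction reads into event types, classed under those names, and they numbered 425 of 10376 events: 287 first-exon and 138 last-exon events, treated separately throughout. The data came from bone marrow-derived macrophages, cells grown from marrow in medium conditioned by L929 cells, a source of macrophage growth factor. The marrow donors were wild-type C57BL/6 mice that had breathed either room air or cigarette smoke, with 3 RNA libraries in each group and the cells harvested on day 11 of culture. The animals' age, and the length and dose of the exposure, are not given in the sources used here.

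A gene with several promoters starts transcription at different first exons, which splice to a common acceptor, the 5′ edge of the next exon. Such a choice changes the 5′ untranslated region or the N-terminus of the protein. A last exon is set by splicing from a common donor into one of several 3′ exons and by cleavage and polyadenylation at that exon's end, which requires a poly(A) signal, most often the hexamer AATAAA. Both kinds of choice are common in mammalian genes, macrophage genes among them.

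The promoters of Apobec3 and Rbms1 are shown because each gene has a RefSeq start site at both of its competing first exons, so the 2 promoters can be read side by side. Each covers 250 bases before to 50 bases after the start (RefSeq, GRCm38.p6), in lower case, with capitals marking matches on either strand to the GC box core GGGCGG, the CCAAT box, the TATA box TATAAA and the AP-1-like site TGANTCA.
Apobec3 upstream promoter, chr15:79892158-79892457, plus strand: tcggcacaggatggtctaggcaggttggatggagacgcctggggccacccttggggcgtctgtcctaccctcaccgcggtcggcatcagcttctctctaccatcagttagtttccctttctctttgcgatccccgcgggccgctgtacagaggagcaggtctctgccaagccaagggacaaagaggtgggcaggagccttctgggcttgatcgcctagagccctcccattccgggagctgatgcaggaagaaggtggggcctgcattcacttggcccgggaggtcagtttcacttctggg
Apobec3 downstream promoter, chr15:79894773-79895072, plus strand: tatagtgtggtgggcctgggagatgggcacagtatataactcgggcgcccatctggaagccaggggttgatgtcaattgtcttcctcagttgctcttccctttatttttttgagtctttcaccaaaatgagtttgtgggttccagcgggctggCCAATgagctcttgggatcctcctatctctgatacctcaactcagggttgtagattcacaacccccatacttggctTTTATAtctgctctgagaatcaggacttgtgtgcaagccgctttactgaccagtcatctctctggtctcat
Rbms1 upstream promoter, chr2:60963155-60963454, minus strand: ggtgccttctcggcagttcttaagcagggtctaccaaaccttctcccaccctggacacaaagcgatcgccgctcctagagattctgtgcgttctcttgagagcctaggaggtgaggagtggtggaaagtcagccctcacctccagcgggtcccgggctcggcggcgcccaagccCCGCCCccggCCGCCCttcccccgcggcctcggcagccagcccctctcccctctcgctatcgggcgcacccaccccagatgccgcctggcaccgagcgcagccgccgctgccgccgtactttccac
Rbms1 downstream promoter, chr2:60881389-60881688, minus strand: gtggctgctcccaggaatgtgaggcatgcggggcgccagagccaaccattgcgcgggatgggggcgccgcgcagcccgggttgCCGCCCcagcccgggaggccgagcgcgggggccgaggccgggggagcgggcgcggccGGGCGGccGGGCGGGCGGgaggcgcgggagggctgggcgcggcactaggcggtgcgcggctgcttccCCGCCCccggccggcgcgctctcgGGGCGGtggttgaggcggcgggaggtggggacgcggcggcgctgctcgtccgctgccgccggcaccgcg

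The junctions of Plec and Cd180 show what an event compares. In Plec, which encodes the cytoskeletal linker plectin, the capitals are the end of a first exon and the lower-case part is the shared next exon. In Cd180, which encodes a Toll-like receptor-related protein that lacks a signalling domain, the lower-case part is the shared donor exon and the capitals are the start of a last exon (GENCODE M21 transcripts, 15 bases on each side).
Plec first exon nearest the acceptor: CCGAGGGCAAGAAAGatgaacgagaccgtg
Plec first exon that was higher after smoke: GGGAGAAGTACAAAGatgaacgagaccgtg
Plec farthest first exon: TCATCCGCATTGCAGatgaacgagaccgtg
Cd180 main last exon: cagaagtgcattgagAAAGAAGTCAACAAA
Cd180 second last exon: cagaagtgcattgagGAATATCCAGTATTG
Cd180 farthest last exon: cagaagtgcattgagAGCTGTCTGTCTAGG

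The transcript ends of several last exons are given next, with the poly(A) signal in capitals, because they mark where an annotated transcript with that exon stops.
Ahnak long exon: acaagccaAATAAAgctctttattaaccct
Son early exon: tgtcttttAATAAAcagtttacttttattt
Gna13 early exon: ctcacctgAATAAAtgtcattttaaattct
Lrrc27 early exon: agcctggctataAATAAAcctcttgaggcc
Asph early exon: ttaagagcAATAAAatggagatgaattctt
Zwint early exon: aggaatctttcATTAAAtacctcaattttc
Zwint distal exon: agataataAATAAAcatataactataagat

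The first-exon events had 205 shared acceptors in 200 host genes, and 285 of the 287 included exons overlapped an exon of the authors' merged annotation on their strand. An event gives the level of 1 exon, the included one, against all others that splice to the same acceptor. There were 2 alternatives in 101 events, 3 in another 101, and at most 9. The included exon was the one nearest the acceptor in 152 events, lay between others in 96 and was the farthest in 39. Its median length was 164 bases (28 to 5415), and the median distance to the closest competing exon was 1097 bases (4 to 81573). GENCODE M21 had the same intron as the first of a transcript in 208 of the 287 (72.5%), and JuncBASE marked 104 events as holding a junction outside the annotation it used. Of 188 included exons found in coding transcripts, 107 were untranslated and 78 held coding sequence.

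The last-exon events had 125 shared donors in 119 host genes, and 88 of the 138 had 2 alternatives. Here the included exon was mostly the early one: it was nearest the donor in 115 events (83.3%) and farthest in 6. Included last exons were longer than included first exons, with a median of 674 bases, and the longest was the 17497-base exon of Ahnak. Of 105 found in coding transcripts, 91 held coding sequence, and 35 of the 46 events with coding transcripts on both sides had coding sequence in both last exons. In 70 events (50.7%) a competing splice was the last of a GENCODE M21 transcript, and in 50 (36.2%) both the included and a competing splice were.

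RefSeq promoters lay within 50 bases of an included or competing first exon in 187 of the 287 events, 213 promoters in all. GGGCGG occurred on either strand of 127 of them (59.6%), against 35.7% of all 32851 RefSeq promoters. TATAAA occurred in 10 (4.69%), against 13.6% of all promoters. The median number of CpG dinucleotides in 300 bases was 20, against 7 over all. CCAAT was found in 39% against 37.4% of all, and TGANTCA in 6.1% against 7.81%. The set of all promoters was not limited to genes expressed in these cells, so these contrasts need not be particular to alternative first exons. Promoters at included and at competing exons had similar shares of GGGCGG, 58.9% of 112 and 59.9% of 152. These groups of promoters overlap, because an exon included in an event can be a competing exon in another event of its set. The similarity is thus partly built in, and no conclusion about included against competing exons is drawn from it. The downstream Apobec3 promoter held TATAAA on the opposite strand starting 21 bases before the start site and CCAAT 97 bases before it, with 4 CpG dinucleotides, while the upstream one held none of the motifs searched and 13 CpG dinucleotides. Aligned without gaps, these 2 promoters were identical at 30.3% of positions.

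At the 3′ ends, AATAAA lay within the last 40 bases of a transcript for 68 of 109 included last exons (62.4%) and ATTAAA for a further 11. Of 70 events with a competing last exon in a transcript, 42 (60%) had AATAAA at that exon's end and 5 had ATTAAA. Some ends, such as that of the farthest Nrros exon, recur as competing ends across events and are also counted as included. The number of separate competing ends is therefore lower, and the included and competing shares are not independent. Over all 62361 last introns of coding genes in GENCODE M21 the share with AATAAA was 31%, and 61% had neither signal. That set was not limited to transcripts expressed in these cells or with a complete 3′ end. The contrast therefore need not be particular to alternative last exons. These matches describe letters in the annotated sequence and were not tied to a measured cleavage site.

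The level of an event is the percentage of its reads that support the included exon, as deposited by the authors, and the read numbers behind it were not used here, so the depth is unknown. Smoke replicate 1 stood apart: it had no value in 110 first-exon and 58 last-exon events, against 0 to 15 and 0 to 1 in the other 5 libraries. All 6 values were present in 172 first-exon and 79 last-exon events. Macrophage markers were well expressed in the authors' deposited table: all 10 were tested, with means from 401.3 to 23170 normalized counts in room air, and none passed the authors' test. Of 8 neutrophil markers 3 were listed, all with means of at most 0.2. Markers of B cells (highest mean 6.06) and dendritic cells (0.767) were near 0, none of 4 erythroid markers was listed, and Cd4, the only T cell marker listed, had means of 28.97 and 22.38. The 4 stromal markers summed to 21.07 normalized counts in room air and 6.03 after smoke, and none passed the authors' test. Their part in the results below was not tested. As the libraries are bulk RNA, a smaller share of cells using an exon and a lower use within each cell cannot be told apart.

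No first exon and no last exon differed between the groups at an adjusted p under 0.05 (limma on the log2 odds of inclusion, Benjamini-Hochberg over all 10376 events). The share called was 0.0% over all events in either direction. The lowest adjusted p was 0.128 among first exons and 0.225 among last exons. At an unadjusted limma p under 0.05 there were 17 first-exon events (5.92%), 9 with a higher and 8 with a lower level after smoke, and 4 last-exon events (2.9%), 2 in each direction. That is 3.14% higher and 2.79% lower among first exons and 1.45% each way among last exons. Over all events the same share was 10.8% (1.55% higher, 9.29% lower), and over the 7071 events other than retained introns it was 6.15% (2.22% higher, 3.93% lower). The authors' deposited table, with its own p-values, had 20 first-exon and 11 last-exon events at an unadjusted p under 0.05 (6.97% and 7.97%), against 4.15% of all events and 5.22% of those other than retained introns. Its lowest corrected p-values were 0.514 and 0.0847. These counts depended on settings: a pseudocount of 0.1 gave 5 first exons at an adjusted limma p under 0.05, and leaving out smoke replicate 3 gave 17 first and 5 last exons (50 and 29 unadjusted), against 1131 of all events (2583 unadjusted, 24.9%), with a group at 0% or 100% in 16 of the 17 and 4 of the 5. Of the 17 first-exon events in limma at an unadjusted p under 0.05 with all libraries, 15 had a mean level under 10% or over 90%, and in 6 a whole group sat at exactly 0% or 100%. The share of all events that passed with a pseudocount of 0.1 is not given here, so the 5 first exons cannot be set against it.

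Group means were close for most events. The median absolute difference was 3.15 percentage points for first exons and 3.22 for last exons, while the median SD within a group was 3.17 and 2.72 in room air and 3.93 and 3.87 after smoke. A difference of at least 10 points was found in 26 first-exon events (9.06%) and 8 last-exon events (5.8%). Directions were nearly balanced, with 149 first-exon events lower and 138 higher after smoke and 69 last-exon events each way. In 49 first-exon and 8 last-exon sets 2 or more exons were measured. The levels in such a set are shares of the same reads, so a rise in 1 exon goes with a fall among the others. The balance of directions and the averages that follow are thus partly fixed in advance. Averaged over the 172 first-exon events with all 6 values, the level was 38.67%, 38.49% and 38.9% in room air replicates 1 to 3 and 38.32%, 38.43% and 38.32% in the smoke replicates. For the 79 last-exon events the averages were 47.54%, 47.76% and 47.89% in room air and 46.77%, 48.17% and 48.91% after smoke. The 3 smoke averages of the first exons were all below the 3 room air averages, by 0.331 points in the mean, while those of the last exons lay on both sides of the room air range. With all first-exon events that had at least 2 values in each group, the difference was 0.00493 points. Among the 93 first-exon events with a mean level of 10% to 90% the averages of the groups overlapped.

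All smoke values lay above or below all room air values in 40 of 172 first-exon events (23.3%), 14 above (8.14%) and 26 below (15.1%), and in 17 of 79 last-exon events (21.5%), 9 above (11.4%) and 8 below (10.1%). Over all events with 6 values the share was 23.1% (3.84% above, 19.3% below), and without retained introns it was 15.1% (5.66% above, 9.46% below). It was 10.7% for cassette exons and 38.9% for retained introns, so both types lay between these. Among the types other than retained introns it ranged from 8.16% to 26.3%, the latter for alternative donors, and was 19.8% for alternative acceptors. The 40 first-exon events came from 34 genes and the 17 last-exon events from 13. Exons of the same set share reads, so these events are not all independent. The gap between the groups was small in most cases: it was under 2 points in 23 of the 40 first-exon events and at least 5 points in 6, which belong to Fhl3, Mfsd12, Apobec3 and Plec. Among last exons with all 6 values only the gap in Nrros, of 7.79 points, exceeded 5.

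**Figure D1:**
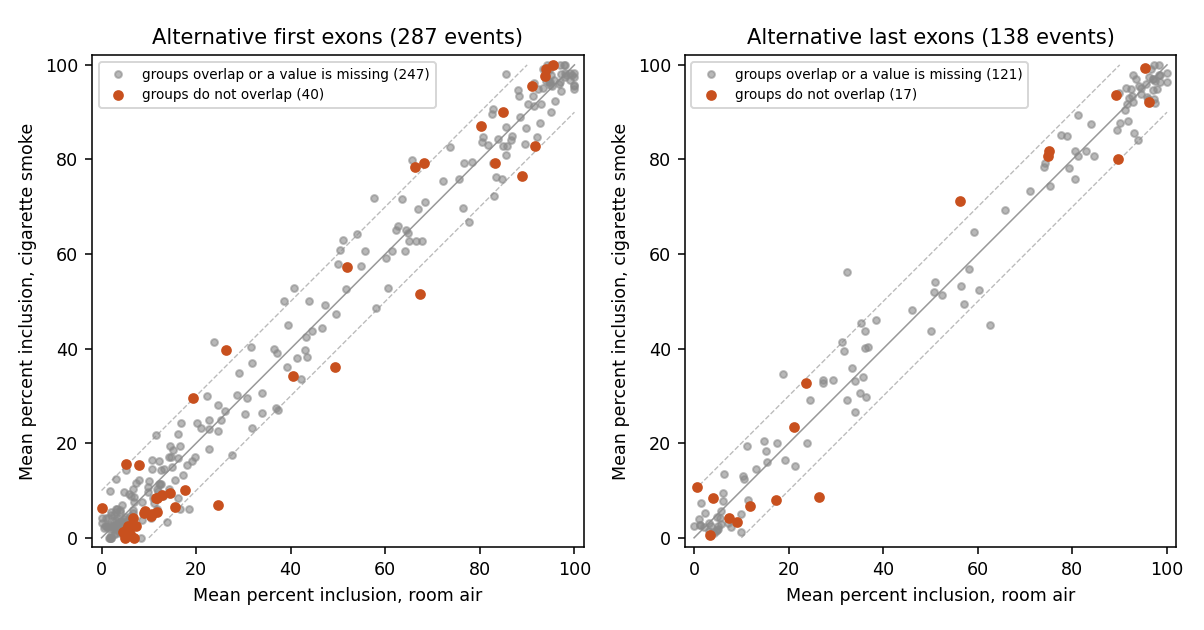
Mean percent inclusion in room air (x axis) against cigarette smoke (y axis) for each alternative first-exon event (left, 287) and last-exon event (right, 138); the solid line marks equal means, the dashed lines a difference of 10 percentage points, and filled orange points the 40 and 17 events with all 6 values whose groups did not overlap. Most points lie within the dashed lines, and the orange points are spread over low, middle and high levels.

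Plec had the most alternatives of all first-exon sets. Plectin's alternative first exons are known to give different N-termini, and 9 alternatives spliced to 1 acceptor on chromosome 15 (76194813, minus strand, mm10 coordinates), 6 of them measured as included exons. The exon 34545 bases upstream (76229358 to 76229497, coding) had levels of 4.35%, 4.88% and 6.25% in room air and 18.18%, 11.76% and 16.67% after smoke. All smoke values were above all room air values, by 5.51 points at the closest, and the means were 5.16% ± 0.98 and 15.5% ± 3.36 (SD, n = 3; limma adjusted p = 0.293). The exon nearest the acceptor (76195424 to 76195710), the most used, had 52.17%, 48.78% and 46.88% in room air and 36.36%, 41.18% and 30.56% after smoke, again without overlap (limma adjusted p = 0.526). The levels of 1 set are shares of the same reads, so these 2 differences are not independent. The other 4 exons overlapped between the groups, the farthest (76231174 to 76231378) with means of 24.5% and 28.0%. For total Plec RNA the log2 fold change was -0.07 (SE 0.12, adjusted p 0.814), from the authors' deposited table.

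Fhl3, which encodes a LIM-domain protein, had the widest gap of all first-exon events. Its exon at chromosome 4, 124703640 to 124703931 (plus strand), whose junction is not in GENCODE M21, was included at 68.18%, 70.73% and 62.96% in room air and at 52.94%, 50% and 51.85% after smoke. The groups were 10.02 points apart at their closest, with means of 67.3% ± 3.96 and 51.6% ± 1.49 (SD, n = 3; limma adjusted p = 0.478). The annotated first exon of the gene, untranslated and at 124700701 to 124700851, had the opposite order: 18.18%, 19.51% and 20.37% in room air and 29.41%, 33.33% and 25.93% after smoke. Another unannotated exon, at 124695964 to 124696070, had means of 12.1% and 16.2% with overlapping groups. The unannotated exon nearer the acceptor had the largest share of the measured exons in every library.

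**Figure D2:**
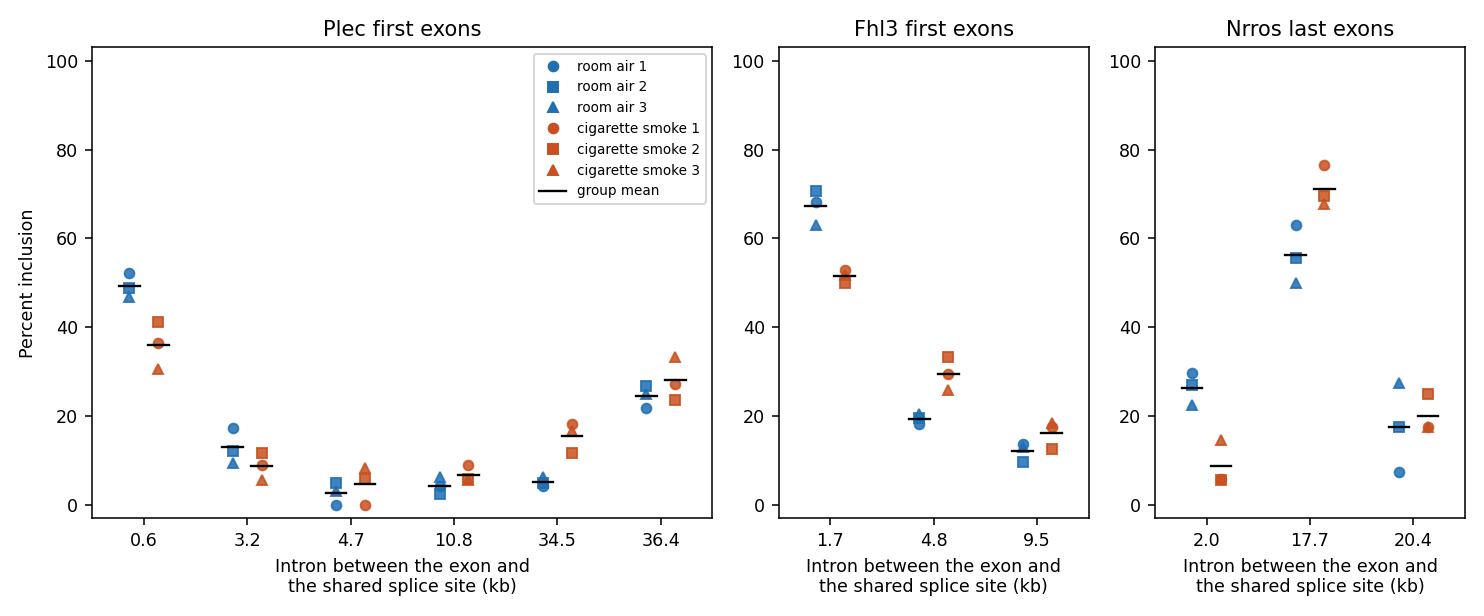
Percent inclusion (y axis) of each measured exon of 3 sets, ordered on the x axis by the length in kb of the intron between that exon and the shared splice site; points are single libraries and black lines the group means. In Plec the exon at 34.5 kb is higher and that at 0.6 kb lower in all smoke libraries, in Fhl3 the exon at 1.7 kb is lower and that at 4.8 kb higher, and in Nrros the exon at 2.0 kb is lower and that at 17.7 kb higher.

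Mfsd12, which encodes a lysosomal membrane protein needed for cysteine import into that organelle, had the largest decrease in mean among first exons. Its unannotated exon between the annotated first exon and the shared acceptor (chromosome 10, 81359105 to 81359553, plus strand) had levels of 32%, 20.34% and 21.62% in room air and 5.26%, 4.17% and 11.49% after smoke. Every smoke value was below every room air value, and the mean was 17.7 points lower (24.7% ± 6.39 against 6.97% ± 3.95, SD, n = 3; limma adjusted p = 0.265). The competing exon is the gene's annotated, coding first exon. The largest increase in mean among first exons was of like size, 17.6 points.

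Apobec3 had the lowest adjusted p of all events of both types. The gene encodes a cytidine deaminase that restricts retroviruses, and its 2 first exons, each 167 bases long, start 2620 bases apart on chromosome 15. The downstream exon (79895023 to 79895189, untranslated) was used at 7.41%, 7.14% and 6.06% in room air and at 0% in all 3 smoke libraries (limma adjusted p = 0.128). The room air values were close together and the smoke values were all at the lower bound, and the read numbers behind them are unknown. With only the events that have all 6 values in the fit, 1 first-exon event, that of Apobec3, passed with an adjusted p of 0.04. The promoters of both exons are printed above. Host expression had a log2 fold change of -0.15 (SE 0.21, adjusted p 0.728), from the authors' deposited table.

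Bag6, a chaperone gene of the major histocompatibility region, had a coding first exon (chromosome 17, 35135486 to 35135628) at 26.67%, 31.25% and 21.05% in room air and 40%, 33.33% and 45.65% after smoke (difference 13.3 points, limma adjusted p = 0.524), with no overlap. Total Bag6 RNA rose in the authors' deposited table, by 0.30 (SE 0.10, adjusted p 0.0416) on the log2 scale. Rbms1, an RNA-binding protein gene, used the nearer of its 2 promoters at 70%, 65% and 61.9% in room air and at 75% and 84.85% in smoke replicates 2 and 3, with no value in smoke replicate 1. Its 2 first exons are 81573 bases apart, the widest separation among first-exon events, and the values of the groups do not overlap (limma adjusted p = 0.524).

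Prkar1a, the regulatory subunit of protein kinase A, had 3 first exons without coding sequence. The nearest (chromosome 11, 109650921 to 109651073) had 72.41%, 72.41% and 59.7% in room air and 75%, 76.92% and 85.71% after smoke, and the middle one (109650440 to 109650624) had means of 27.6% and 17.4%, with groups that overlap. Adcy7, a macrophage adenylyl cyclase upstream of protein kinase A, had an untranslated 28-base exon at 93.33%, 89.47% and 74.07% in room air and 100% and 96.15% in smoke replicates 2 and 3 (limma adjusted p = 0.413). In both genes the exon closest to the shared acceptor had the higher mean after smoke without overlap of the values, and neither passed the test.

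Bscl2, which encodes the lipid-droplet protein seipin, had an untranslated first exon at 64.71%, 65.38% and 68.75% against 80%, 85.71% and 69.23% after smoke, where the closest values were 0.48 points apart. Cdkn1a, the cell cycle inhibitor p21, had its main untranslated exon at 76.56%, 79.38% and 84.56% against 85.53%, 89.76% and 85.94%. A gene on the opposite strand overlaps that exon, and whether JuncBASE used the strand is not given in the sources used here. Tnfaip8, an apoptosis regulator, had its farthest first exon at means of 7.96% ± 1.12 and 15.3% ± 5.42 (SD, n = 3; limma adjusted p = 0.524), while its main exon held 50% to 86.36% over the 6 libraries.

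Other first exons had lower levels after smoke. Fxyd2, a subunit that modulates the sodium pump, had 88.35%, 87.5% and 91.13% in room air and 83.33%, 85.29% and 60.8% after smoke, where smoke replicate 3 was far below the other 2 smoke libraries. Sept9, a septin gene with 6 alternatives, had its farthest exon (chromosome 11, 117290397 to 117291036), which GENCODE M21 does not have as a first exon, at 11.76%, 11.76% and 22.86% against 8.33%, 5.88% and 5.13% (limma adjusted p = 0.465); the other 4 measured Sept9 exons overlapped between the groups. Cd200r1, the inhibitory receptor for CD200 on myeloid cells, had an exon 19431 bases downstream of its annotated first exon at 19.61%, 17.35% and 15.91% against 5.56%, 10% and 14.71%. Myadm, a myeloid membrane protein gene, had means of 91.6% ± 4.76 and 82.9% ± 1.84 (SD, n = 3; limma adjusted p = 0.495).

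Tfe3 and Mthfs were each measured in 2 smoke libraries. Tfe3, a lysosome biogenesis transcription factor, had an unannotated first exon at 12.5%, 14.29% and 14.81% in room air and at 0% and 6.67% after smoke (limma adjusted p = 0.428). Mthfs, a folate enzyme gene, had a first exon of non-coding transcripts at 17.65%, 22.22% and 15.79% against 0% and 12.2% (limma adjusted p = 0.479), and its farthest exon at 0%, 0% and 5.26% against 10% and 9.76%.

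**Figure D3:**
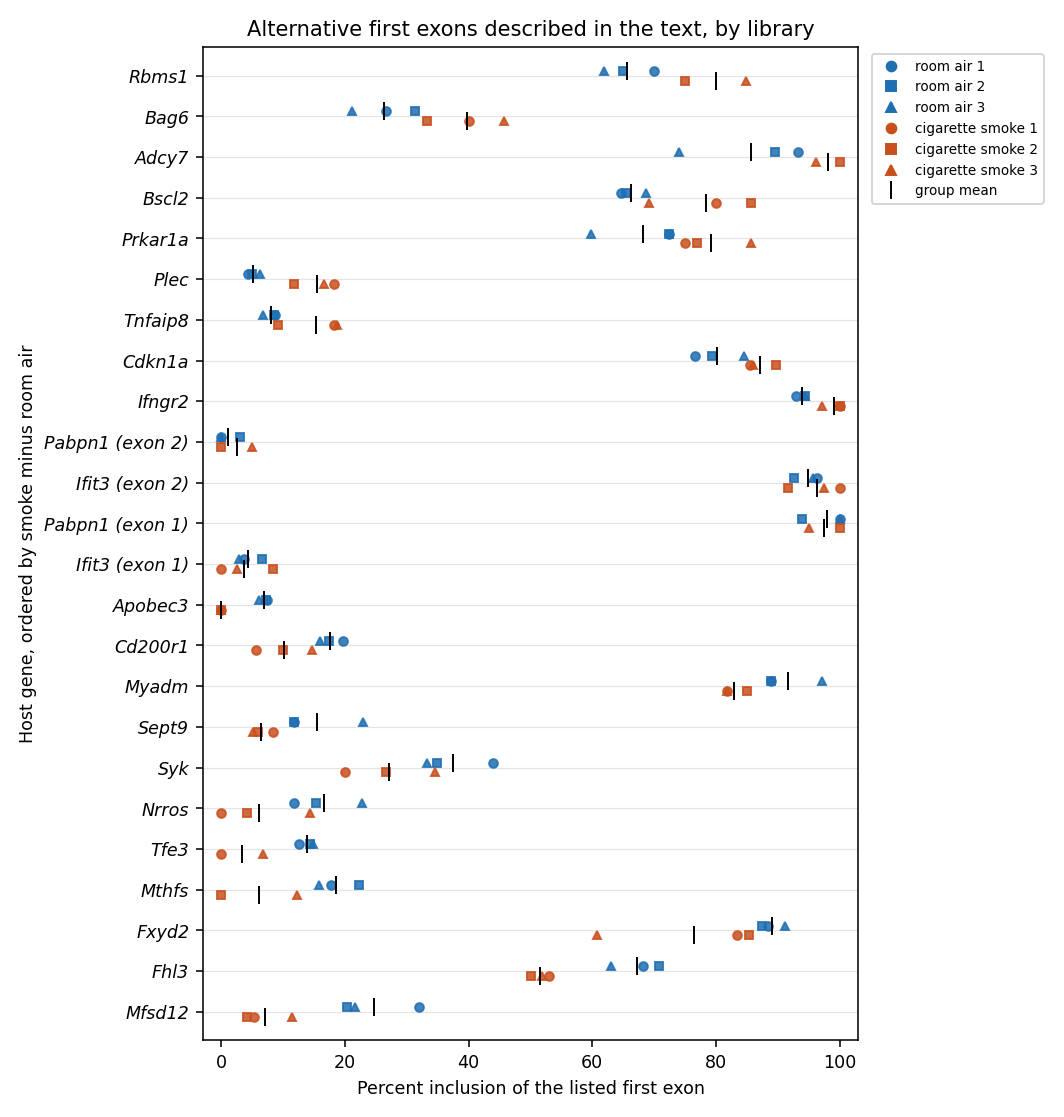
Percent inclusion (x axis) of the alternative first exons described in the text, 1 row per event in the order of the difference of group means; points are libraries (blue room air, orange cigarette smoke, marker shape the replicate number) and black ticks group means; exon 1 and exon 2 mark separate events of 1 gene. Mfsd12 and Fhl3 stand at the bottom with the lowest differences and Rbms1 at the top; the values of Nrros, Syk, Ifit3 and Pabpn1 overlap between the groups.

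Of 109 innate immune genes listed for this comparison, 3 hosted a first-exon event and 1 a last-exon event. Ifngr2, a chain of the interferon gamma receptor, used its annotated first exon (chromosome 16, 91547072 to 91547232, coding) at 92.86%, 94.44% and 94.44% in room air and 100%, 100% and 97.22% after smoke; the rest came from an unannotated upstream exon. The groups did not overlap (limma adjusted p = 0.293). Syk, a kinase downstream of Fc and C-type lectin receptors, had an untranslated exon at 44%, 34.85% and 33.33% against 20%, 26.67% and 34.52%, with overlap (limma adjusted p = 0.582). Ifit3, an interferon-induced gene, used its annotated first exon at means of 94.9% ± 2.04 and 96.4% ± 4.27 (SD, n = 3), and its minor exon at 4.36% and 3.63%. Zbp1, a sensor of Z-form nucleic acids, ended in an early coding last exon at 75%, 70.59% and 76.19% in room air and 76.47% and 80.49% in 2 smoke libraries (limma adjusted p = 0.764).

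Among last exons with all 6 values, Nrros had the widest gap and the largest decrease in mean. The gene encodes a transmembrane protein that anchors latent TGF-β1 in macrophages and microglia. Splicing from its first exon into the exon at chromosome 16, 32162237 to 32163397 (minus strand), was 29.63%, 26.98% and 22.5% in room air and 5.88%, 5.56% and 14.71% after smoke. All smoke values were lower, by 7.79 points at the closest (26.4% ± 3.6 against 8.72% ± 5.19, SD, n = 3; limma adjusted p = 0.293). The splice to the exon at 32147552 to 32147673 had 62.96%, 55.56% and 50% against 76.47%, 69.44% and 67.65%. GENCODE M21 has neither of these as a last exon, so the last-exon class here rests on JuncBASE. A GENCODE M21 transcript has both a splice into the exon with the lower level and a splice out of it. That exon is therefore an inner one there, and its level need not be that of a transcript end, which was not tested. The farthest exon, an annotated coding last exon, had means of 17.5% and 20.1% with overlap.

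The Nrros exon that was lower as a last exon also appears as a first exon, since the pieces share their 5′ edge at 32163397. As a first exon it had 11.76%, 15.38% and 22.73% in room air and 0%, 4.17% and 14.29% after smoke (limma adjusted p = 0.491), where the groups overlap. The last-exon event counts junctions into this exon and the first-exon event junctions out of it, so they rest on different reads of the same RNA libraries and exon and are not independent. Total Nrros RNA had a log2 fold change of 0.16 (SE 0.16, adjusted p 0.616), taken from the authors' deposited table. In all, 10 genes hosted events of both types.

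Cd180 had the lowest adjusted p among last exons. The protein dampens Toll-like receptor 4 responses in macrophages and dendritic cells. Its farthest last exon (chromosome 13, 102739166 to 102739629, plus strand), whose 5′ junction is printed above, had 0%, 1.82% and 0% in room air and 9.09%, 18.75% and 4.08% after smoke (limma adjusted p = 0.225). The main last exon (102702701 to 102704262) had 90.62%, 90.91% and 87.27% against 81.82%, 75% and 83.67%, and the second (102704854 to 102709624) had means of 4.07% and 8.51%, also without overlap. The groups were separate in each of the 3, but these are shares of the same reads. A gene on the opposite strand overlaps the farthest exon. The authors' deposited table gave total Cd180 RNA a log2 fold change of -0.41 (SE 0.16, adjusted p 0.0921).

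Ahnak had small but very even differences. The gene encodes a giant scaffold protein whose repeats lie in 1 huge exon, and splicing past that exon gives a short form. The long exon (chromosome 19, 9001699 to 9019195, plus strand) was included at 96.42%, 96.68% and 95.7% in room air and 91.53%, 92.45% and 92.43% after smoke. The groups were 3.25 points apart with SDs of 0.508 and 0.525 (limma adjusted p = 0.476), and this event had the lowest corrected p of any last exon in the authors' deposited table, 0.0847. Total Ahnak RNA fell by 0.69 on the log2 scale (adjusted p 0.000388, SE 0.14), again from the authors' deposited table.

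Several other genes had higher levels of an early last exon after smoke, none past the test. Son, which encodes a splicing co-factor of nuclear speckles, ended early at 26.47%, 23.94% and 20.55% in room air and 35.71%, 31.82% and 30.49% after smoke (chromosome 16, 91664920 to 91665708; difference 9.02 points, limma adjusted p = 0.559), with no overlap. Tinf2, a telomere shelterin gene, had 74.07%, 73.33% and 76.92% against 80%, 82.35% and 79.55%, and Ak6, a nuclear adenylate kinase gene, 76.47%, 73.33% and 75.21% against 86.21%, 82% and 77.04%. An opposite-strand gene overlaps the Tinf2 exon. Speg, a kinase gene related to myosin light chain kinases, had means of 89.3% ± 0.594 and 93.7% ± 1.69 (SD, n = 3; limma adjusted p = 0.526).

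Xpnpep1, an aminopeptidase gene, used its early last exon at 95.24%, 96.67% and 93.94% in room air and 100%, 100% and 98.21% after smoke (limma adjusted p = 0.291). Its total RNA rose in the authors' deposited table, by 0.30 on the log2 scale (SE 0.10, adjusted p 0.0324). Gna13, a G protein alpha subunit gene, had its early exon at 15.79%, 14.71% and 25.71% against 38.46% and 30.61%, with no value in smoke replicate 1. Lrrc27, a leucine-rich repeat gene, had the largest difference of all, 37.5% and 27.27% against 50% and 62.5%, with 2 values a group (limma adjusted p = 0.522). For Asph, an aspartyl hydroxylase gene of the endoplasmic reticulum, the groups overlap: 40%, 35.94% and 29.73% against 30.77%, 47.06% and 58.33%.

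In 3 other genes the listed last exon had lower values after smoke. Zwint, a kinetochore gene, has 2 last exons that differ in the untranslated region, and the early one had 13.33%, 16% and 22.73% in room air and 6.25%, 7.41% and 10.39% after smoke (chromosome 10, 72668812 to 72669789; limma adjusted p = 0.465). Cmtm7, a MARVEL-domain membrane protein gene, had 15%, 9.09% and 11.54% against 8.33%, 4.76% and 6.98%, with a gap of 0.76 points. Acbd6, an acyl-CoA binding protein gene, had its farthest exon at 53.85%, 60% and 73.91% against 40% and 50%, and its nearest, a coding last exon, at 38.46%, 33.33% and 21.74% against 40% and 42.86%. GENCODE M21 has the splice to the farthest Acbd6 exon, but not as the last of any transcript, so its last-exon class rests on JuncBASE.

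**Figure D4:**
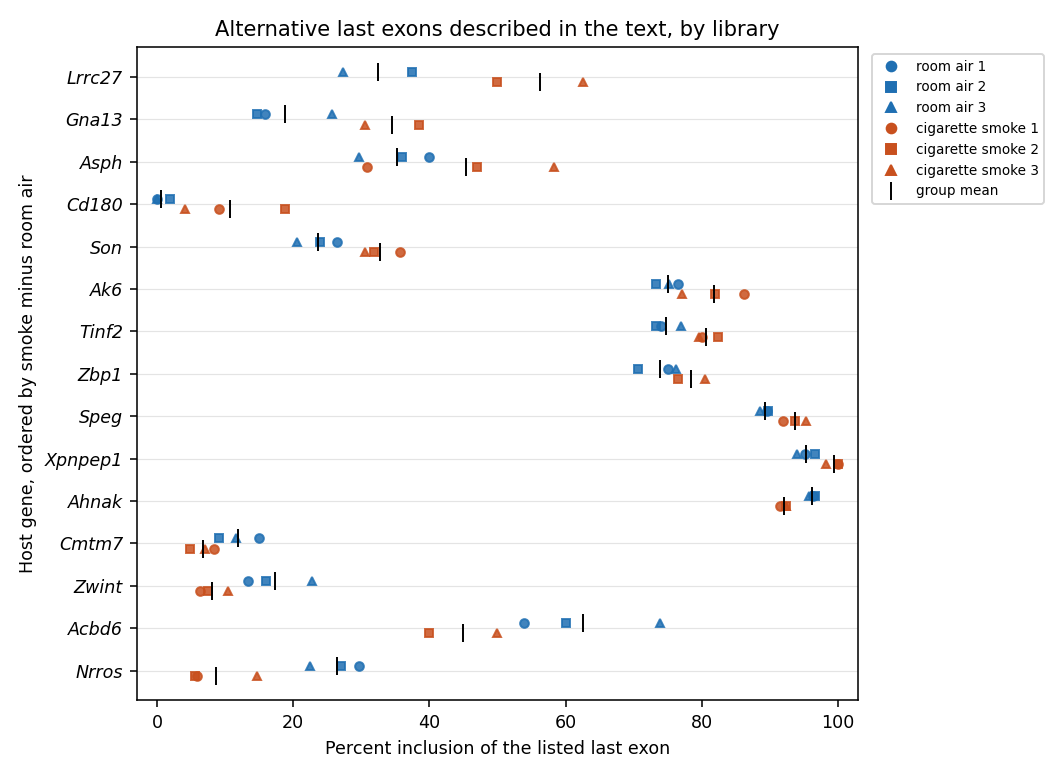
Percent inclusion (x axis) of the alternative last exons described in the text, 1 row per event in the order of the difference of group means; points are libraries (blue room air, orange cigarette smoke, marker shape the replicate number) and black ticks group means. Ahnak and Nrros lie wholly lower after smoke and Son and Cd180 wholly higher, while Asph overlaps.

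The position of an exon relative to the shared splice site did not divide the directions clearly. First exons nearest the acceptor were lower after smoke in 86 of 152 events and higher in 66, and among the 84 with all 6 values 6 lay above and 13 below room air without overlap. Their mean use was 38.56%, 37.55% and 38.54% in room air and 36.91%, 37.23% and 37.86% after smoke, a difference of -0.885 points, with values of the groups that overlap. Last exons nearest the donor, the early ends, were higher in 58 of 115 events and lower in 57, with 6 above and 7 below of 64.

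By annotation, first exons that were not first in any GENCODE M21 transcript were lower after smoke in 47 of 79 events and higher in 32, and annotated ones were lower in 102 and higher in 106 of 208. Among 47 first-exon events with all 6 values whose included exon was not a first exon of any GENCODE M21 transcript, 1 lay wholly above and 11 wholly below room air, together 25.5%. Among the 125 whose exon was annotated as first, the counts were 13 and 15, together 22.4%. Over all events other than retained introns 5.66% lay above and 9.46% below, and the difference between the annotation classes was not tested. The first group includes Mfsd12, Fhl3, Sept9 and Cd200r1, and its median level was 10.1% against 33.8% in the second. Last exons that were not annotated ends were lower after smoke in 20 of 29 events and higher in 9, with a median difference of -1.75 points, and annotated ends were lower in 49 and higher in 60 of 109. Among those that were not annotated ends and had all 6 values, 1 lay above and 2 below of 22, against 8 and 6 of 57. Retained introns also had lower levels after smoke in the same libraries, with mean retention of 15.57%, 16.7% and 14.75% in room air and 10.27%, 11.25% and 12.8% after smoke, and their part in the levels of exons not annotated as first or last was not tested. This split by annotation was examined after the values had been seen.

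**Figure D5:**
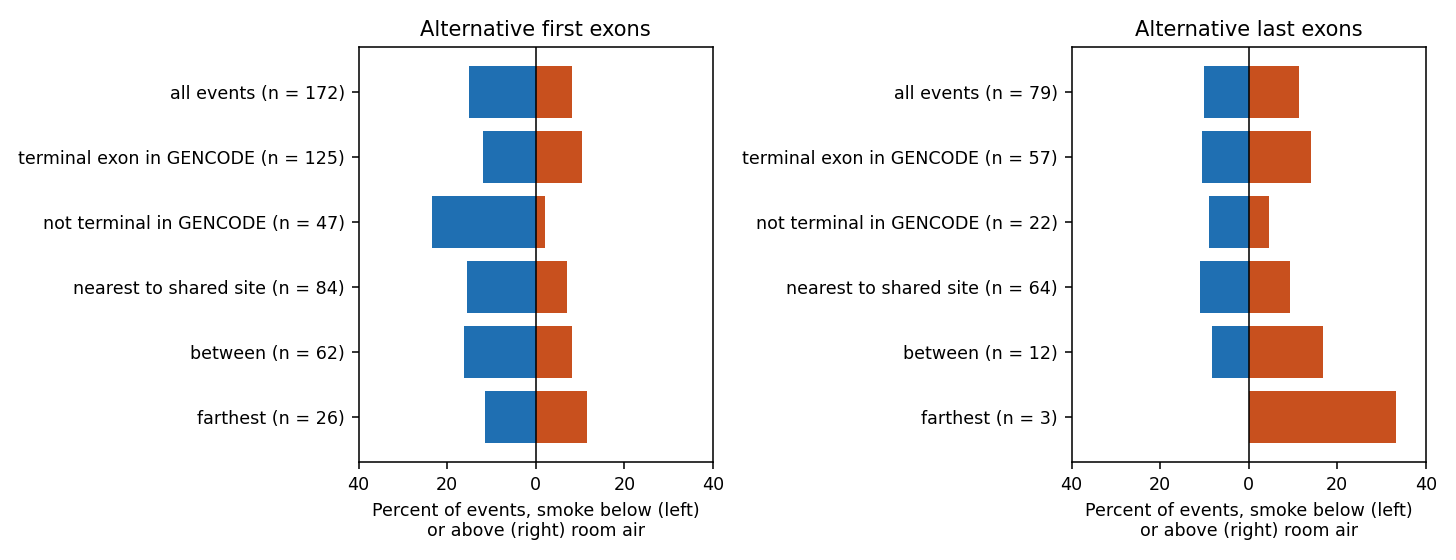
Percent of events with all 6 values (x axis) in which every smoke value lay below (blue, left) or above (orange, right) every room air value, for first exons (left panel) and last exons (right panel), over all events and by annotation and position of the included exon, with the number of events in brackets. First exons not annotated as first have 11 of 47 events below and 1 above, and the 3 farthest last exons are too few to compare.

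Of 196 first-exon hosts tested in the authors' deposited table, 13 rose and 8 fell at an adjusted p under 0.05 (10.7%), and of 112 last-exon hosts 5 rose and 4 fell (8.04%). Over all 12082 genes tested in that table the share was 7.69%, with 4.15% higher and 3.53% lower. The hosts were more highly expressed: the median count in room air was 704 for first-exon and 432 for last-exon hosts, against 142 over all. The part of expression level in these shares was not tested. The median log2 fold change was 0.08 for first-exon and -0.02 for last-exon hosts. None of the 28 first-exon events in hosts whose expression changed had an unadjusted limma p under 0.05, and 1 of the 10 such last-exon events did, that of Xpnpep1. Among the remaining events 17 of 259 first-exon and 3 of 128 last-exon events did. The shares were 5.92% and 2.9% of each type and 10.8% of all events, so these counts are too small to compare.

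The factors that make RNA ends were examined through lists of genes in the authors' deposited table. Of 32 RNA end processing genes, which cover cleavage and polyadenylation factors and others known to act on it such as U1 snRNP proteins and transcription elongation kinases, none rose and 3 fell. These were Papolg, a poly(A) polymerase, with a log2 fold change of -0.67 (SE 0.19, adjusted p 0.0107), Pcf11, a subunit of the cleavage factor that also promotes termination, with -0.50 (SE 0.17, adjusted p 0.0437), and Rbbp6, a cleavage factor with a ring-finger domain, with -0.46 (SE 0.12, adjusted p 0.00506). The median of the list was -0.03, against -0.00285 over all genes tested. Of 46 genes for general transcription factors and Mediator subunits, Taf10 and Med11 rose and Taf1 and Med1 fell, with a median of -0.07. Pabpn1, the nuclear poly(A)-binding protein gene, itself hosts 2 first-exon events, which it shares with Gm20521; its annotated first exon had levels of 93.94% to 100% over 5 libraries. Of the innate immune list 107 genes were tested, and 11 rose and 6 fell, with a median of 0.05. In the authors' deposited table, 4.15% of all genes tested rose and 3.53% fell, and none of the 3 lists was compared with that share by a test.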

How the data were processed

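Directional total-RNA libraries from 6 macrophage cultures were sequenced by the authors. Percent inclusion levels per event and library, and their p-values, were deposited by the authors as JuncBASE output. STAR, DESeq2, SAMtools 1.9, bedtools 2.27.1 and mm10 are named in the submitters' processing notes. The other values deposited by the authors are group means of size-factor-normalized counts (signal), log2 fold changes with standard errors, a Wald score, p-values and adjusted p-values from a fit to 24 libraries, and a merged Cufflinks annotation, per the file headers. The deposited rMATS table was not used. JuncBASE thresholds and read numbers per event are not given in the sources used here, so the depth is unknown and no interval can be set on a single level. Library columns were matched to samples by their names, which equal the sample descriptions apart from the prefix, and 0 per-sample columns were left unmatched.

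Levels p were turned into log2 odds, with a pseudocount of 1 percentage point added to p and to 100 - p, and compared with limma 3.58.1 in R 4.3.3 over all 10376 events, group as the term and Benjamini-Hochberg adjustment, two-sided. The script was checked on simulated levels. Events with missing values were fitted on the libraries present. With 3 against 3 libraries an exact permutation test cannot give a p below 0.1, so none is given for single events. Host genes came from splice junctions shared with GENCODE M21 (GRCm38, the same build as mm10) and from overlap with the merged annotation; introns matching no transcript were called unannotated. Promoters came from RefSeq (GRCm38.p6) and transcript sequences from GENCODE M21. The labels' protocol says that marrow from each mouse was divided between direct harvest and culture, but no label ties a library to a mouse, so p-values cover only the spread between these libraries, which may be technical.

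The events described are, per type: the 10 host genes with the lowest p among events with a difference of at least 10 points and at least 2 values a group (6 last-exon hosts qualified), up to 8 more with the largest differences among events with 6 values and separate groups, and events in the innate immune and RNA end processing lists. Exons of the same set are given beside them. The members, lists and rules were chosen with earlier results of these data known. Alternatives were other pseudocounts (0.1 and 5), the percent scale, filters on missing values and on levels outside 5% to 95%, a replicate block, and leaving out each library.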

Additional observations from a re-analysis of the deposited data

How the results depend on the processing

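The count of 0 first exons at an adjusted p under 0.05 became 5 with a pseudocount of 0.1, 1 with only events that have all 6 values (Apobec3) and 0 to 17 when single libraries were left out; the 17 arose without cigarette smoke replicate 3, where 1131 of all events passed, and in 16 of them the values left in a group were all 0% or all 100%. For last exons the range was 0 to 5, the 5 again without that library, 4 of them with a group at 0% or 100%. At an unadjusted p under 0.05 the 17 first exons became 38 on the percent scale and 10 with levels of 5% to 95%, and 15 to 50 with a library left out (50 without smoke replicate 3). Over all events the unadjusted share with a library left out was 7.95% to 24.9%. The 4 last exons became 11 with a pseudocount of 5, 16 on the percent scale, 7 with all 6 values, 9 with levels of 5% to 95%, and 6 to 29 with a library left out (29 without smoke replicate 3). For the other pseudocounts, the percent scale and the filters, the share over all events is not given here. Those counts are therefore not read as particular to first or last exons. With the replicate block, the unadjusted counts were 13 first exons and 7 last exons, with 0 adjusted in both. The replicate numbers did not pair the samples: correlations of same-numbered libraries were 0.0177, -0.0404 and -0.0888 over 5933 events. The first-exon mean difference of -0.331 points was 0.00493 with at least 2 values in each group and -0.428 to -0.122 with a library left out, and that of the last exons, 0.22, was -0.266 to 0.602. Separate groups (chosen after seeing the data) numbered 48 to 70 first exons with a library left out, 68 without smoke replicate 1 and 70 without smoke replicate 3, and 22 to 36 last exons, with 26, 36 and 27 without room air replicate 1, smoke replicate 1 and smoke replicate 3; fewer libraries make separation easier, and over all events the share then was 26.9% to 38.1%. The difference of the nearest first exon was -1.22 to -0.399 points and of the nearest last exon -0.654 to 0.676. With single libraries left out, the differences changed sign for the 2 Ifit3 exons, ranging from -0.342 (without smoke replicate 1) to 3.82 for the main exon and from -3.08 to 1.09 (without smoke replicate 1; 0.4 without room air replicate 2) for the minor one. The same held for the 2 Pabpn1 exons, from -1.01 (without smoke replicate 3) to 3.99 for the minor exon and from -2.98 to 2.02 (without smoke replicate 3; 0.53 without room air replicate 1 or 3) for the main one; the cause was not tested. Among the events described, Mfsd12, Tfe3, Mthfs, Apobec3, Ifngr2, Nrros (as a last exon) and Xpnpep1 passed an adjusted p of 0.05 without smoke replicate 3 (Tfe3 and Mthfs then had 1 smoke value each, at 0%, assumed to vary like room air), and Apobec3 also with a pseudocount of 0.1 (adjusted p 0.0125). Of the other alternatives, 474 kept the direction and side of the threshold of single events. Read numbers per event limit all levels, most of all those at 0% or 100%.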
